A study of Homo sapiens with 4 samples.

Results

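Solute carriers form a large superfamily of membrane transporters, and 191 of their genes were measurable in MCF12A cells, out of 10371 measurable genes in all. Members were chosen by symbol, which had to begin with SLC and a number or with SLCO, and selected on brightness, with a highest intensity over the 4 arrays of at least 155. Of 388 such genes read by a probe set of their own, 200 reached that intensity and 188 did not. The amino acid, glucose, lactate and zinc carriers SLC7A11, SLC7A5, SLC3A2, SLC7A1, SLC1A5, SLC38A2, SLC30A1, SLC2A1 and SLC2A3 were set aside by the same rule, and SLC16A3, also set aside, had no probe set of its own. MCF12A is an established, non-tumorigenic breast epithelial cell line. A culture kept for 1 week with ethanol at 25 mM was set against its own unexposed culture (control 1), and a culture kept as long with acetaldehyde, at 2.5 mM, against its own (control 2). All 4 were monolayers, and their medium held cholera toxin, insulin, hydrocortisone, horse serum and EGF. Each group was 1 culture on 1 Affymetrix Human Gene 1.0 ST array, so none of the differences below has a replicate check or a test, and with 4 arrays their precision is unknown. Differences are log2 differences of an exposed array minus its own control, unless other arrays are named.

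Solute carriers move nutrients, ions, metabolites and drugs across the plasma membrane and the membranes of organelles, without splitting ATP themselves. Many couple their cargo to the sodium gradient that the sodium pump maintains or to a proton gradient, whereas others exchange one solute for another or let it run down its own gradient. In epithelia they feed amino acids, sugars, phosphate and metals to the cell, and the mitochondrial family SLC25 links the cytosol to respiration. The 191 genes were sorted by substrate into 16 groups, of which the mitochondrial carriers (32 genes), the metal and heme carriers (23), the nucleotide sugar family (23) and the amino acid carriers (19) were the most numerous. A group of 7 genes carries solute carrier symbols but encodes no carrier, among them the RNA genes SLC9A3-OT1, SLC25A5-AS1 and SLCO4A1-AS1.

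The value distributions were alike within an experiment and differed between experiments, as arrays scaled in separate pairs would be, although the sources used here do not give the scaling. Sorted log2 values differed by a mean of 0.0398 between ethanol and control 1 and 0.0268 between acetaldehyde and control 2, against 0.270 to 0.285 between arrays of different experiments. Markers of the cell type were read on all arrays. Basal KRT5 lay between 9757 and 12169 and luminal KRT8 between 2580 and 5292. Other genes of these lists varied more, such as basal KRT14 (822 to 5075) and luminal CD24 (358 to 2204). The 7 basal markers read summed to 32809 with ethanol, 35175 in control 1, 30518 with acetaldehyde and 33154 in control 2. The 10 luminal markers, 9 of them measurable, summed to 14337, 12306, 7619 and 7707 in the same order. KRT8 was the brightest of them on every array. ESR1 stayed under 155 on every array, KRT19 on all but control 2 (184), and ELF3 on both exposed arrays. Of 9 measured markers of leukocytes, endothelium and fat cells CD14 alone reached 155, and their summed intensity was between 580 and 774. Squamous differentiation markers moved in every comparison, most with ethanol. Each of the 19 measurable genes on that list of 20 was lower with ethanol (median -2.85). With acetaldehyde 17 of the 19 were lower (median -0.72), and 14 were lower in control 2 than in control 1 (median -1.43). The summed intensity of the 20 was 5509 with ethanol, 46386 in control 1, 13503 with acetaldehyde and 25378 in control 2. None of the 20 was at 0, and the loricrin gene alone stayed under 155 on every array. The 10 mesenchymal markers, 7 of them measurable, summed to 14656 with ethanol, 9128 in control 1, 20095 with acetaldehyde and 16526 in control 2. The part of these shifts in the carrier values was not tested, and in whole cultures fewer cells of a kind and less RNA per cell cannot be told apart.

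With ethanol, 6 carriers were at least 2-fold higher and 3 at least 2-fold lower than in control 1. That is 3.14% of the 191 for the higher ones, against 1.17% of all 10371 genes, and 1.57% for the lower ones, against 2.11% of all genes. At 1.5-fold, 14 carriers were higher (7.33%, against 5.44% of all genes) and 6 were lower (3.14%, against 4.21%). The median difference was 0.10 over the carriers and 0.05 over all genes, and 123 of the 191 (64.4%) lay above 0, against 57.8% of all genes. Restricted to genes at or above 155 on all 4 arrays, 2 of 151 carriers were at least 2-fold higher (1.32%, against 0.880% of all genes so restricted) and 1 was lower (0.662%, against 1.15%). Of these 151 carriers, 64.9% lay above 0, against 61.4% of all genes so restricted. Their median was 0.10, against 0.07. All 6 higher ones lay above both controls, as did 88 of the 121 genes at least 2-fold higher (0.849% of all genes). Where control 2 was lower than control 1, as for SLCO2A1 and SLC20A1, any value above control 1 was above both. Of the 3 lower ones 2 lay below both, as did 146 of the 219 genes at least 2-fold lower (1.41% of all genes). At any size, ethanol lay above both controls for 71 carriers, against 35.2% of all genes, and below both for 39, against 28.1%. The higher carriers were SLCO2A1, SLC26A2, SLC20A1, SLC22A4, SLC16A4 and SLC16A14, and the lower ones were SLC6A14, SLC39A2 and SLC22A23.

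**Figure D1:**
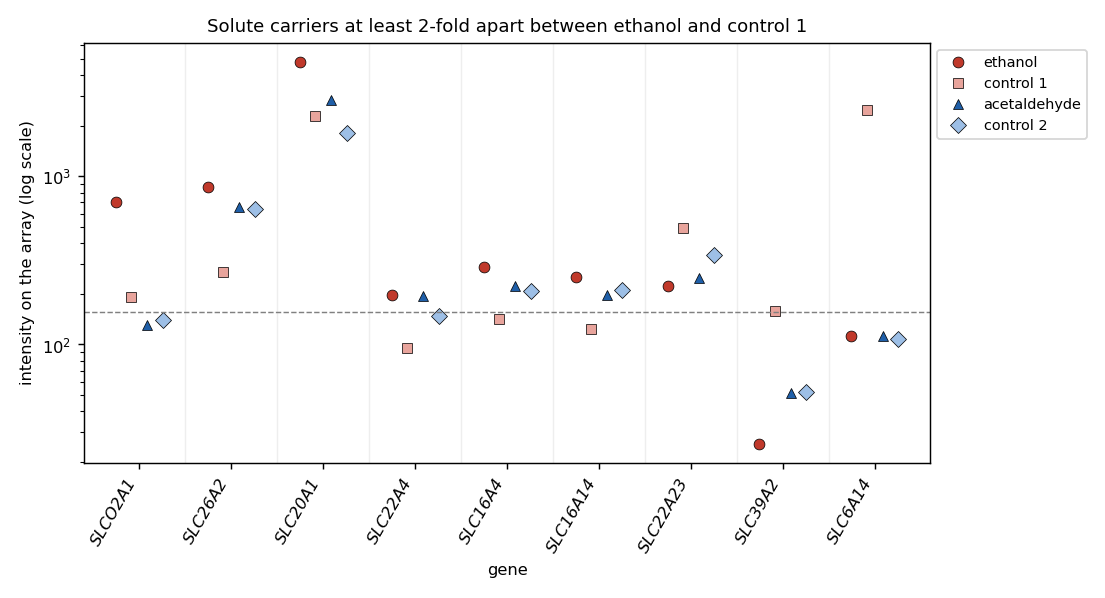
Intensity (log scale) of the 9 carriers at least 2-fold apart between ethanol and control 1, with 1 point per array: ethanol (red circle), control 1 (pale red square), acetaldehyde (blue triangle) and control 2 (pale blue diamond). The dashed line is the intensity limit of 155. SLCO2A1 is high on the ethanol array alone (704), and SLC6A14 is high on the control 1 array alone (2492).

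The prostaglandin transporter SLCO2A1 clears prostaglandins from outside the cell. Its intensity was 704 with ethanol against 190.4 in control 1, and 130.4 with acetaldehyde against 141 in control 2. Only the ethanol array was high, and the matched difference was 1.89 (3.70-fold). The other measured carriers of its family were SLCO3A1, at -0.23, and SLCO4A1, at -0.06.

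SLC26A2, the sulfate transporter that supplies sulfate for proteoglycans, was at 862 with ethanol against 271 in control 1, and at 653 with acetaldehyde against 635 in control 2. Here control 1 was the low array and the ethanol array the highest, so that ethanol was 3.18-fold above control 1 (1.67) and 0.44 above control 2 on the log2 scale. SLC20A1, the sodium-coupled phosphate importer PiT-1, was at 4790.3 with ethanol against 2271 in control 1, and at 2843 with acetaldehyde against 1795 in control 2. Both exposed arrays exceeded both controls, with differences of 1.08 for ethanol and 0.66 for acetaldehyde. Its paralog SLC20A2 (PiT-2) stood at -0.25 and 0.02, and the phosphate exporter XPR1 at 0.46 and 0.14. The other anion exchangers SLC26A6 and SLC26A11 were at 0.10 and -0.08 with ethanol.

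SLC22A4, a carrier of the antioxidant ergothioneine, had 197 with ethanol against 95.3 in control 1, and 195 with acetaldehyde against 147 in control 2. It was above both controls on both exposed arrays (1.05 and 0.40), though control 1 and control 2 were under the limit of 155. SLC22A5, the carnitine importer, is its neighbour in the genome and was at 484 with ethanol against 343 in control 1, a difference of 0.50. SLC22A5 was at 304 with acetaldehyde against 287 in control 2 (0.08).

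The monocarboxylate family gave the remaining higher genes. SLC16A4 was at 289.7 with ethanol against 141 in control 1 (1.04), and at 223 with acetaldehyde against 208 in control 2. SLC16A14, an orphan of the family, was at 252 with ethanol against 123 in control 1 (1.03), and at 196 with acetaldehyde against 212 in control 2. For both genes control 1 was the lowest array and under 155. With every value under 155 set to 155, neither these nor SLC22A4 reached 2-fold, nor did they under joint quantile normalization of the arrays. SLC16A7, the high-affinity pyruvate and lactate carrier MCT2, was at 0.02, SLC16A5 at 0.02 and SLC16A8, the lactate carrier MCT3, at -0.28.

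Promoters are printed to show the letters behind the counts that follow. They are those of SLC26A2, SLC20A1 and SLC22A4, picked among the 6 higher carriers for an E-box in their window. That of SLC6A14, the gene with the lowest difference, was added. Each runs from 250 bases before to 50 after an annotated start in RefSeq, build GRCh38.p14. Capitals mark CACGTG, the palindromic E-box read by MYC, USF and TFE proteins, or TGANTCA, the AP-1 motif, searched on both strands and without overlap between them in these windows. SLC26A2 lies at chr5:149960508-149960807, plus strand. SLC20A1 lies at chr2:112645689-112645988, plus strand. SLC22A4 lies at chr5:132294144-132294443, plus strand. SLC6A14 lies at chrX:116436356-116436655, plus strand.
SLC26A2: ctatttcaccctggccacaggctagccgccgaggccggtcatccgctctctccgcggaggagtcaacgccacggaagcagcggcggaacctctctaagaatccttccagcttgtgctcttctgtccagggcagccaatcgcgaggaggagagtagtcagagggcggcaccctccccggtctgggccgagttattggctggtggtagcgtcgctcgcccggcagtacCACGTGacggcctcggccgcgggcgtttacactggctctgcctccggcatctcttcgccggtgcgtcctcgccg
SLC20A1: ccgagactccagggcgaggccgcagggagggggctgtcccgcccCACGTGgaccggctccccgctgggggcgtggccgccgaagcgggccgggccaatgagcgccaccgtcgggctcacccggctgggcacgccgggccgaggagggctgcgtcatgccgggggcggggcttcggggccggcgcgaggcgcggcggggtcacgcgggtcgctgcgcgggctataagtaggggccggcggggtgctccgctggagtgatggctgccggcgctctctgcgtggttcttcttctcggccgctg
SLC22A4: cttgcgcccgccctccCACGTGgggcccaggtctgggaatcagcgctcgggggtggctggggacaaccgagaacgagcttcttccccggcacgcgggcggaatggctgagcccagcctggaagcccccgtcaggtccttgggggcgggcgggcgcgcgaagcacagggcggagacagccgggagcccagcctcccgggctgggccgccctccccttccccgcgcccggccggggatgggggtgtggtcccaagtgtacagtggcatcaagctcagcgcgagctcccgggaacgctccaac
SLC6A14: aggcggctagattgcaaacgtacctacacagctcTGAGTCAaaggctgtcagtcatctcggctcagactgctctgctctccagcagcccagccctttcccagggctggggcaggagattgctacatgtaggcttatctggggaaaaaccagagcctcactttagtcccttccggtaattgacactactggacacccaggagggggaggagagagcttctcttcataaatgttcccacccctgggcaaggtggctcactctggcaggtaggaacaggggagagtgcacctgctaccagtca

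The CACGTG began 24 bases before the start of SLC26A2, 206 before that of SLC20A1 and 234 before that of SLC22A4. Windows of SLC16A4 and SLC16A14 are not printed. SLCO2A1 was not searched. The window of SLC6A14 held TGAGTCA 216 bases before the start. Of the carriers, 160 had at least 1 such window, and CACGTG was found in 31 of them (19.4%), against 8.77% of 27305 genes. Those 27305 are all genes with a window, measurable here or not, whereas the carriers were selected on brightness. The share over the measurable genes alone was not computed. Among the carriers at least 1.5-fold higher with ethanol, 4 of the 11 with a window held CACGTG, and among those at least 1.5-fold lower 0 of 6. TGANTCA was found in 13 of the 160 carriers (8.12%), against 9.37% of the 27305 genes, in 3 of the 11 and in 1 of the 6. GGGCGG, the GC box, was in 125 of the 160 (78.1%), against 48.3% of the 27305 genes. These are matches of letters in short windows and not measured binding sites.

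SLC6A14 imports neutral and cationic amino acids with sodium and chloride. It was at 112 with ethanol against 2492 in control 1, and at 113 with acetaldehyde against 108 in control 2. Control 1 alone was high, and the other 3 arrays lay under the limit of 155, so the 22.3-fold difference (-4.48) rests on the level of control 1. Against control 2, ethanol differed by 0.0498. SLC39A2, the zinc importer ZIP2, was at 25.6 with ethanol against 158 in control 1 (-2.62), and at 51.7 with acetaldehyde against 52.4 in control 2 (-0.02). It entered the list through control 1, which lay just above the limit, and with values under 155 set to 155 its difference was under 2-fold. SLC22A23, an orphan of the organic ion family, was at 223 with ethanol against 495 in control 1 (-1.15), and at 248 with acetaldehyde against 341 in control 2 (-0.46). Both exposed arrays were below both controls for this gene.

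Below these came SLC6A9 (-0.72), the glycine transporter GlyT1, SLC10A6 (-0.69), an importer of steroid sulfates, and SLC25A23 (-0.68), a mitochondrial ATP-magnesium/phosphate carrier. SLC6A9 was at 303 with ethanol against 501 in control 1, and at 197 with acetaldehyde against 181 in control 2. SLC10A6 was at 442 with ethanol against 711 in control 1, and at 128 with acetaldehyde against 143 in control 2. For both, ethanol lay between the controls, which differed from each other by more (-1.47 and -2.31 for control 2 minus control 1). SLC25A23 was at 327 with ethanol against 522 in control 1, and at 311 with acetaldehyde against 395 in control 2, below both controls on each exposed array.

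Of 19 amino acid carriers, 10 (52.6%) were above 0 with ethanol, against 57.8% of all genes. The median was 0.03, against 0.05 over all genes. After joint quantile normalization, which lowered the median over all genes as well, it was -0.0032 against 0.0045. SLC1A3, a sodium-coupled importer of glutamate and aspartate (EAAT1), was at 830.4 with ethanol against 455 in control 1, and at 425 with acetaldehyde against 455 in control 2. The ethanol array alone was high, with a difference of 0.87. SLC43A2, a facilitated carrier of large neutral amino acids (LAT4), was at 0.80 and the cationic carrier SLC7A2 (CAT2) at 0.66. In both of these control 2 was higher still, by 1.22 and 1.60 over control 1. SLC1A4, a neutral amino acid exchanger (ASCT1), was at -0.40 with ethanol and 0.40 with acetaldehyde, the highest amino acid carrier in that comparison, at 133 against 101 in control 2, both under the limit. SLC38A1, the glutamine importer SNAT1, had 7133 with ethanol against 7161 in control 1, and 5058 with acetaldehyde against 5238 in control 2. SLC38A9, the lysosomal arginine sensor of the mTORC1 pathway, was at 0.10 and 0.11, and SLC7A8 (LAT2) was at -0.39 and -0.29.

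**Figure D2:**
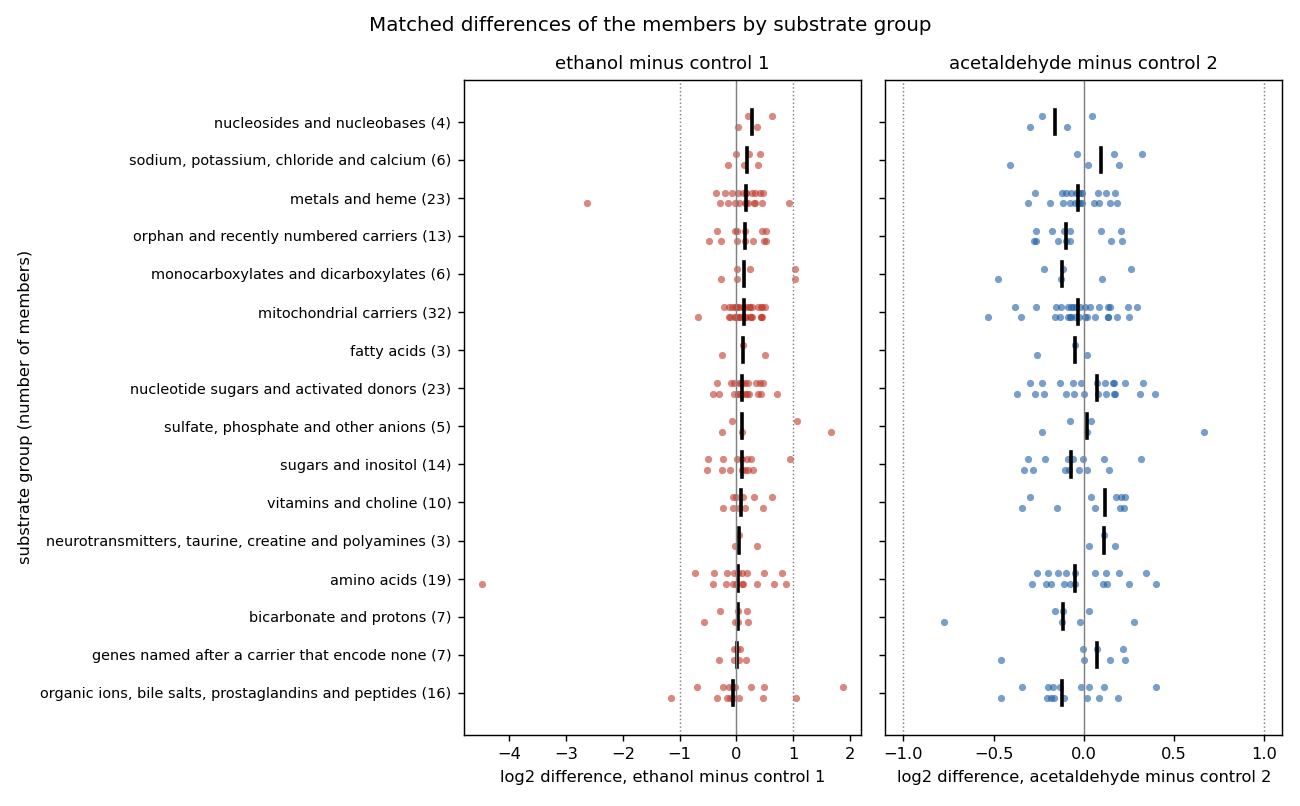
Log2 difference of each of the 191 members (points) in 16 substrate groups for ethanol minus control 1 (left) and acetaldehyde minus control 2 (right), with the group median as a black bar; the horizontal axes differ in range and dotted lines mark 2-fold. Nucleoside carriers have the highest median with ethanol (0.29) and the lowest with acetaldehyde (-0.16).

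Among the 23 metal and heme carriers, 16 (69.6%) were above 0 with ethanol, against 57.8% of all genes, with a median of 0.17 against 0.05. The zinc importers of the ZIP family (SLC39) numbered 12, of which 10 were above 0. SLC39A14 (ZIP14), which takes up zinc, manganese and non-transferrin iron, was at 928 with ethanol against 486 in control 1, and at 526 with acetaldehyde against 533 in control 2. The other 3 arrays lay close together, and ethanol was 1.91-fold above control 1 (0.93). Its close relative SLC39A8 (ZIP8) was at 0.20. SLC39A10 was at 0.47, with both arrays of the acetaldehyde experiment (746 with acetaldehyde, 656 in control 2) above both of the ethanol experiment (489.7 with ethanol, 353 in control 1).

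The SLC30 proteins are zinc exporters, most of which load the secretory pathway and vesicles, while SLC30A9 acts in mitochondria. Of the 5 measured, 4 were above 0 with ethanol, against 57.8% of all genes. SLC30A6 (0.45), SLC30A7 (0.42), SLC30A9 (0.32) and SLC30A5 (0.31) were above both controls, and SLC30A4 was at -0.36. For SLC30A6, SLC30A7 and SLC30A9 control 2 was lower than control 1, so any value above control 1 was above both. SLC30A6 had 1739.6 with ethanol against 1271 in control 1, and 716 with acetaldehyde against 689 in control 2. With acetaldehyde the 5 lay between -0.04 (SLC30A5) and 0.12 (SLC30A9). The copper importer SLC31A1 (CTR1) was at -0.20 and -0.19, and the iron importer SLC11A2 (DMT1) at 0.15 and -0.01. SLC48A1, which releases heme from lysosomes, was at -0.14 with ethanol and -0.31 with acetaldehyde, the lowest of the metal and heme carriers with acetaldehyde.

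**Figure D3:**
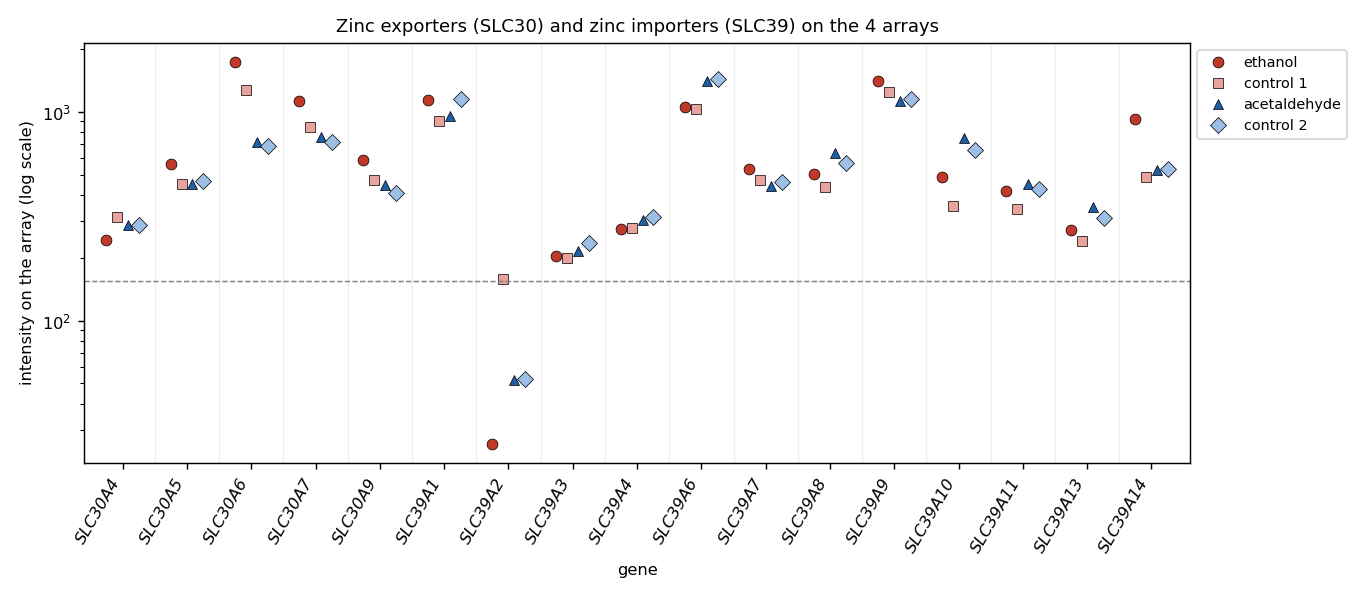
Intensity (log scale) of the 5 zinc exporters (SLC30) and 12 zinc importers (SLC39) on the ethanol, control 1, acetaldehyde and control 2 arrays, with the intensity limit of 155 as a dashed line. SLC39A14 is highest on the ethanol array (928), and SLC39A2 is under the limit on every array but control 1 (158).

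Of the 32 mitochondrial carriers, 22 (68.8%) were above 0 with ethanol, against 57.8% of all genes, with a median of 0.13. None was 1.5-fold above control 1, against 5.44% of all genes, and 1, SLC25A23, was 1.5-fold below it. SLC25A30, at 197 with ethanol against 139 in control 1, was the highest (0.50), and it reached the limit through the ethanol array alone. SLC25A37 (mitoferrin-1), the mitochondrial iron importer, was at 0.46 with ethanol and 0.25 with acetaldehyde, and SLC25A38, which brings glycine in for heme synthesis, at 0.44 and 0.04. SLC25A51, the mitochondrial NAD importer, was at 0.46 over its brighter probe set, while its other probe set gave 1.01. The adenine nucleotide exchangers SLC25A5 and SLC25A4 were at -0.03 and 0.05, the phosphate carrier SLC25A3 at 0.17 and the citrate exporter SLC25A1 at -0.03. Both subunits of the mitochondrial pyruvate carrier, MPC1 (0.13) and MPC2 (0.41), were above control 1.

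Sugar and inositol carriers numbered 14, of which 9 (64.3%) were above 0 with ethanol, against 57.8% of all genes (median 0.10). SLC2A13, a proton-coupled myo-inositol importer, was at 99.4 with ethanol against 51.3 in control 1 (0.95), and at 190.1 with acetaldehyde against 191 in control 2, so the ethanol experiment was under the limit on both arrays. SLC5A3, the sodium-coupled myo-inositol importer, was at -0.49, at 1346 with ethanol against 1891 in control 1. SLC50A1, the sugar carrier of the SWEET family, was lowest at -0.51, with 1442 with ethanol against 2057 in control 1, and 3267 with acetaldehyde against 3477 in control 2. It was below both controls with ethanol.

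All 4 equilibrative nucleoside carriers of the SLC29 family were above 0 with ethanol, against 57.8% of all genes, led by the lysosomal SLC29A3 (0.63). Only SLC29A4 was above 0 with acetaldehyde (0.04), against 50.7% of all genes. SLC29A3 was at 459.8 with ethanol against 298 in control 1, and at 202 with acetaldehyde against 248 in control 2. It lay above both controls with ethanol and below both with acetaldehyde. SLC29A1 (ENT1) was at 0.36 and -0.23. Among 10 vitamin and choline carriers, SLC5A6, which imports biotin and pantothenate, was highest at 0.63, with 659 with ethanol against 425 in control 1, and 561 with acetaldehyde against 487 in control 2. The ascorbate importer SLC23A2 was at 0.48 and 0.20, the folate importer SLC19A1 at 0.12 and 0.23, and the thiamine importer SLC19A2 at -0.23 and 0.18. SLC5A6 and SLC23A2 were above both controls on both exposed arrays.

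The SLC35 family supplies the Golgi and endoplasmic reticulum with activated sugars and sulfate. With the acetyl-CoA carrier SLC33A1 it made up 23 genes, 17 of them (73.9%) above 0 with ethanol, against 57.8% of all genes, and the median was 0.10. SLC35D1, a carrier of UDP-glucuronic acid and UDP-N-acetylgalactosamine needed for chondroitin sulfate, was highest at 0.72, at 174 with ethanol against 105 in control 1. It was at 148 with acetaldehyde against 131 in control 2 (0.17). SLC35D1 reached the limit through the ethanol array alone, and with values under 155 set to 155 its ethanol difference was under 1.5-fold. SLC35B1 was at 0.38 and SLC35B4 at 0.47, while the CMP-sialic acid carrier SLC35A1 was lowest at -0.41. The sulfate donor carriers SLC35B2 and SLC35B3 were at 0.05 and 0.04 with ethanol and at 0.16 and 0.33 with acetaldehyde.

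The chloride and calcium carriers numbered 6 and the bicarbonate and proton carriers 7. The chloride cotransporter SLC12A2 (NKCC1) was at 0.23 and 0.19, SLC12A4 (KCC1) at 0.13 and 0.32 and SLC12A8 at 0.43 and -0.04. Of the bicarbonate and proton carriers, SLC4A11 was lowest with ethanol (-0.57), at 319 with ethanol against 474 in control 1. The Golgi sodium/proton exchanger SLC9A8 was at 0.20. Fatty acid carriers were SLC27A3 (0.51), SLC27A1 (0.13) and SLC27A4 (-0.25), and the taurine and creatine importers SLC6A6 and SLC6A8 were at 0.36 and 0.05. SLC6A8 has near-identical copies in the genome, as has the pair SLC35E2A and SLC35E2B, so their values are uncertain. Among orphan carriers SLC9D1 was highest (0.53) and SLC66A2 lowest (-0.49).

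With acetaldehyde no carrier was 2-fold apart from control 2 in either direction, against 0.0289% of all genes for higher and 0.212% for lower (0.0193% and 0.174% when also outside both controls). At 1.5-fold, 1 was higher (SLC20A1, against 0.742% of all genes) and 1 lower (SLC9A9, against 0.974%). The median was -0.03 over the carriers and 0.00 over all genes, and 83 of 191 (43.5%) were above 0, against 50.7% of all genes. Acetaldehyde lay above both controls for 52 carriers, against 30.1% of all genes, and below both for 57, against 24.9%. SLC9A9, an endosomal sodium/proton exchanger, was at 107 with acetaldehyde against 183 in control 2 (-0.77), and at 119 with ethanol against 121 in control 1. Control 2 was the high array there, and the other 3 lay under the limit, so SLC9A9 had to be lower with acetaldehyde. Of the 151 carriers at or above 155 on all 4 arrays, 1 was 1.5-fold higher and 0 were lower. The shares of all genes so restricted were 0.501% and 0.697%.

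The next highest with acetaldehyde were SLC22A4 (0.40), SLC1A4 (0.40), the SLC35 family member SLC35E3 (0.40), the amino acid carrier SLC36A4 (0.34) and SLC35B3 (0.33). SLC35E3 was at 322 with acetaldehyde against 245 in control 2, and at 501 with ethanol against 374 in control 1. The next lowest were SLC25A18 (-0.53), a mitochondrial glutamate carrier, SLC16A8 (-0.48), SLC22A23 (-0.46), SLC25A5-AS1 (-0.46) and SLC8B1 (-0.41), the mitochondrial sodium/calcium exchanger. SLC25A18 and SLC25A5-AS1 reached the limit through control 2 alone and so had to be lower with acetaldehyde. SLC8B1 was at 323 with acetaldehyde against 430.0 in control 2, and at 226 with ethanol against 252 in control 1. SLC16A8 was at 157 with acetaldehyde against 218 in control 2, and at 169 with ethanol against 204 in control 1. It was below both controls on both exposed arrays.

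The ethanol and acetaldehyde differences share no array and can be set side by side. Over the 191 carriers they correlated with r = 0.157 and rho = 0.284, and over all 10371 genes with r = 0.388 and rho = 0.350. These correlations run across genes, which are not independent replicates. Of the 14 carriers at least 1.5-fold higher with ethanol, 6 were above 0 with acetaldehyde (42.9%), against 382 of 564 such genes overall (67.7%). For carriers at least 1.5-fold lower with ethanol 4 of 6 were below 0 with acetaldehyde, against 80.8% of 437 genes. Whatever their ethanol difference, 43.5% of the carriers were above 0 with acetaldehyde, against 50.7% of all genes. Below 0 were 56.5%, against 49.3%. Both exposures were above 0 for 62 of the 191 carriers, against 3669 of the 10371 genes, and below 0 for 47, against 2788. SLC20A1 was the only carrier at least 1.5-fold above its control in both experiments.

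**Figure D4:**
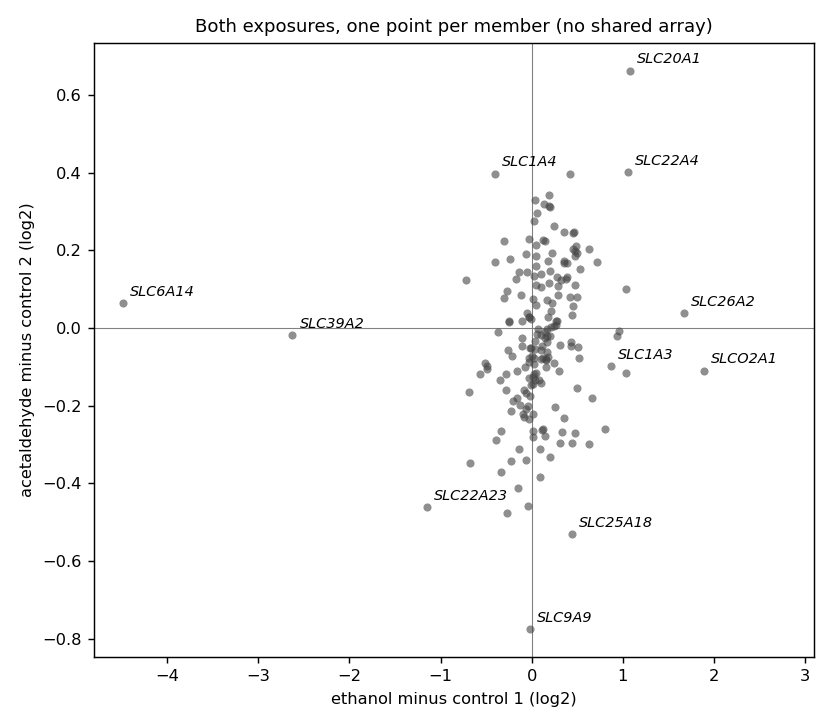
Each point is 1 of the 191 carriers, by its log2 difference with ethanol (horizontal) and with acetaldehyde (vertical). SLC20A1 is far from 0 on both axes (1.08 and 0.66), whereas SLCO2A1 (1.89 and -0.11) and SLC6A14 (-4.48 and 0.06) are far from 0 on the ethanol axis and near it on the other.

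The unexposed cultures differed from each other more than either exposed culture did from its own control. Control 2 was at least 2-fold above control 1 for 14 carriers (7.33%, against 4.24% of all genes) and at least 2-fold below it for 9 (4.71%, against 4.84%). At 1.5-fold these were 39 higher, against 14.9% of all genes, and 24 lower, against 12.9%. On all 4 arrays 151 carriers were at or above 155. Of these, 7 were at least 2-fold higher (4.64%, against 2.82% of all genes so restricted) and 5 lower (3.31%, against 3.94%). Of the 13 carriers that reached the limit on 1 array, 7 did so in control 2 and had to be higher there. The interquartile range of the difference between the controls was 0.72 over the 191 carriers, against 0.36 for ethanol and 0.27 for acetaldehyde. SLC44A5, a choline transporter-like protein, was furthest up, at 166 in control 2 against 19.8 in control 1 (3.06), with 149 with acetaldehyde and 19.6 with ethanol. It reached the limit of 155 through control 2 alone, so it had to be higher there, and the size of its difference rests on values far under the limit. SLC31A2, a copper carrier of endosomes, was at 388 in control 2 against 1365 in control 1 (-1.81), with 358 with acetaldehyde and 1126 with ethanol. SLC37A2, a sugar phosphate exchanger of the endoplasmic reticulum, was at 780 in control 2 against 2086 in control 1 (-1.42). In these 3 genes each exposed array was nearer to its own control than the controls were to each other. SLC6A14 was at -4.48 for ethanol and -4.53 for control 2, both minus control 1, and SLC26A2 at 1.67 and 1.23. SLC39A2 was at -2.62 and -1.59, and SLC2A13 at 0.95 and 1.90. The ethanol and control 2 differences share the control 1 array. Experiment, scaling and culture cannot be told apart in the values of the controls.

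**Figure D5:**
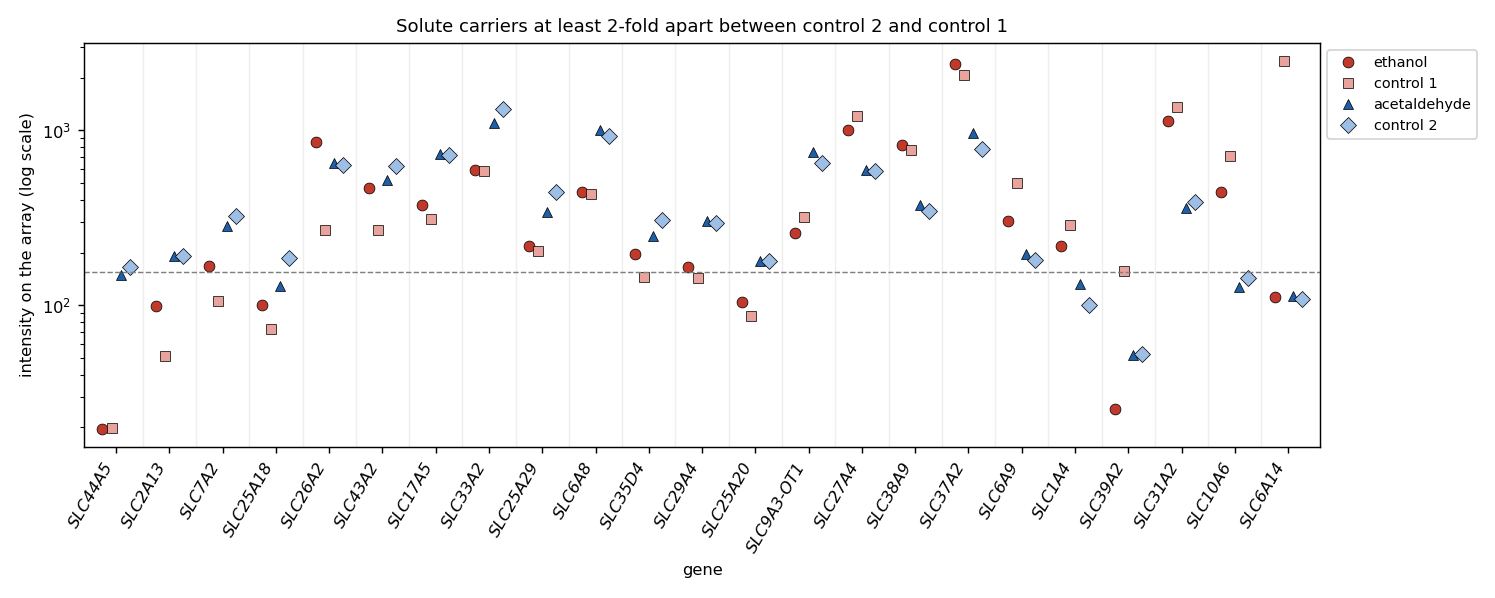
Intensity (log scale) on the ethanol, control 1, acetaldehyde and control 2 arrays of the 23 members at least 2-fold apart between control 2 and control 1, ordered from highest to lowest difference, with the intensity limit of 155 dashed. The arrays pair by experiment in SLC31A2 (1126 with ethanol and 1365 in control 1, 358 with acetaldehyde and 388 in control 2).

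Genes that power, escort or regulate solute carriers were followed as a list of 62, of which 44 were measurable, 2 of these being carriers already counted. Of the other 42, 1 was at least 2-fold higher with ethanol (2.38%, against 1.17% of all genes) and 2 at least 2-fold lower (4.76%, against 2.11%), with a median of 0.10. MFSD2A, an importer of lysophospholipids carrying omega-3 fatty acids, was at 2008 with ethanol against 906 in control 1 (1.15), and at 911 with acetaldehyde against 912 in control 2. The ethanol array alone was high. CA2, the cytosolic carbonic anhydrase that feeds bicarbonate and proton carriers, was at 310 with ethanol against 1153 in control 1 (-1.89), and at 857 with acetaldehyde against 1083 in control 2. FLVCR2, a choline carrier, was at -1.19. The sodium pump subunit ATP1B1 was at 0.83 and 0.33, its regulator FXYD3 at -0.83 and -0.71, and the scaffold NHERF1 at -0.76 and -0.50. With acetaldehyde the kinase SGK1, which raises the activity of several carriers, was lowest, at 131 with acetaldehyde against 283 in control 2 (-1.11). BSG (basigin), the chaperone of lactate carriers, was at 0.06 and -0.08.

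The intensity limit decided some memberships. Just inside it were SLC2A4 (highest intensity 156), SLC39A2 (158) and SLC45A4 (161), and just outside were SLC41A2 (154.9), SLC52A3 (146) and SLC30A3 (144). On all 4 arrays 151 of the 191 reached the limit, and their median with ethanol was 0.10, against 0.07 over all genes so restricted. Of the other 40, 13 reached it on 1 array, which was control 2 for 7 of them, ethanol for 4 and control 1 for 2. SLC45A4 had a second probe set that pointed the other way with ethanol (-0.14, against 0.16).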

How the data were processed

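RNA of 4 MCF12A cultures was labelled with biotin and read on 4 arrays, and groups came from the sample labels. The authors deposited 1 linear intensity per probe set and array, and the submitters' processing notes name RMA, with software and version not given in the sources used here. Log2 was taken with no offset. Of 33297 probe sets, 19460 named 1 gene symbol, 1754 several and 12083 none, in the platform annotation used here, and only the first were used, 12 probe sets shared by a solute carrier and another gene being left out. Of several probe sets of a gene (6 members) the one with the highest mean was kept. All 191 members matched RefSeq (assembly GRCh38.p14) by gene identifier with the same symbol. The intensity limit of 155 is the median of all single-gene values.

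With 1 array a group there was no test. Genes were counted at 2-fold and 1.5-fold, for members and for all 10371 kept genes. The counting code was run on simulated data with planted differences far above the noise. Their recovery was certain, so it does not show how reliable the counts are here. Alternatives were joint quantile normalization, other filters, a floor, the mean of probe sets, the other experiment's control and a range rule. The members, substrate groups and lists were chosen with earlier results of these data known. Named members were those at least 2-fold apart with an exposure, the 10 (ethanol), 6 (acetaldehyde) or 5 (controls) furthest in each direction, the extremes of each substrate group, and those next to the limit; other members, such as SLC22A5, SLC30A5, SLC38A1 and SLC25A37, were chosen after their values were seen. Python 3.11.15, pandas 2.3.3 and matplotlib 3.10.9 were used.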

Additional observations from a re-analysis of the deposited data

How the results depend on the processing

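No paired analysis was possible because each group is 1 array. Values under the limit of 155, replicate spread and the differing scale of the experiments limit all sizes. With ethanol, 6 carriers were higher and 3 lower. The higher count became 14 at 1.5-fold, 12 against the other experiment's control and 3 with values under the limit set to it. The lower count became 6 at 1.5-fold, 9 against the other control and 5 without the filter on dim genes. The ethanol median of 0.10 became -0.0170 without that filter, where the median over all genes was -0.0133. Against control 2 the ethanol difference of SLC6A14 turned to 0.0498. With acetaldehyde the counts of 0 and 0 became 1 and 1 at 1.5-fold and 11 higher and 10 lower against control 1. Between the controls, the 14 higher became 39 at 1.5-fold and 8 with the floor, the 9 lower became 24 at 1.5-fold, and the median of 0.04 became 0.196 without the filter. All other counts stayed within 1.5 times and medians within 0.1, a margin about as wide as the ethanol median itself. The ethanol median became 0.0165 against control 2, where the median over all genes was -0.00895. The acetaldehyde median turned to 0.0538 against control 1, and the controls' median to -0.00696 when genes were kept by their mean intensity. Of 200 differences of named carriers, the 3 just outside the limit included, 149 moved against the other control, 20 with the floor and 1 with the mean of probe sets. Joint quantile normalization gave 4 higher, 3 lower and a median of 0.0443 with ethanol; 3 of the 4 were among the 6, and the other was SLC41A2, which lies just outside the limit as deposited.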
